A study of Rattus norvegicus with 2 samples.

Results

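The annexin family was followed here in RNA from rat urine. The members were 10 genes given by symbol (Anxa1 to Anxa9 and Anxa11), and a member entered when the deposited table held a row under its rat NCBI gene ID. This gave 9 genes out of 16484 with number-only gene IDs and 113011 listed features in all. Anxa9, whose product is regarded as a poor calcium binder, had no row under its ID and was not analysed here. Anxa10 and Anxa13 were no members.

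Annexins are cytosolic proteins that bind negatively charged phospholipids when calcium rises, through a conserved core of repeated helical domains. A variable amino-terminal tail gives each member its own partners, among them small calcium-binding proteins of the S100 family. They take part in membrane repair, vesicle traffic and the link between membranes and actin, and their proteins are common cargo of extracellular vesicles. In the kidney several members are made by tubular and urothelial epithelium.

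There were 2 libraries, both from Sprague Dawley rats. The study's methods give their age as 8 weeks (counted here as postnatal day 56). They do not state whether this was the age at surgery or at urine collection. The UUO library came from rats whose right ureter had been tied, a surgical model of obstruction that scars the kidney (unilateral ureteral obstruction), and the library labelled WT came from rats that had the same operation without the ligation. Urine was drawn through a catheter in the ureter at 2 weeks (14 days) in both groups, and was centrifuged before its RNA was isolated, and the number of rats behind a library is not given in the sources used here. With 1 library per group no difference below has a replicate check, no test between groups was possible, and each value describes these libraries only. In bulk RNA fewer cells of a type and less RNA per cell cannot be told apart.

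Levels are given as FPKM, the fragments of a gene divided by its length and by the size of the library. The table does not name its columns by the sample titles, and the column read as UUO was assigned from the study's own urine lists. If the names were exchanged, every direction below would be the opposite. Steps in the FPKM values placed the scaling total at 2116000 fragments for WT and 2441000 for UUO urine, so that an FPKM of 1 stands for about 2.12 and 2.44 fragments per 1000 bp of effective transcript length. PCR copies were not told apart.

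All 9 annexins were detected in both libraries at an FPKM of at least 1, which 43.8% of the number-only genes were. In WT urine the order was Anxa4, Anxa1, Anxa11, Anxa6, Anxa2, Anxa7, Anxa5, Anxa3 and Anxa8, from an FPKM of 146.5 down to 2.35, with a median of 36.3. In UUO urine it was Anxa2, Anxa4, Anxa1, Anxa8, Anxa11, Anxa7, Anxa5, Anxa3 and Anxa6, from 109.03 down to 10.9, with a median of 47.6. The levels spanned 62.4-fold in WT and 9.96-fold in UUO urine, and without Anxa8, whose WT level is the least precise, 14.7-fold and 9.96-fold. Of the 36 pairs of members, 12 changed their order between the libraries. Anxa11 and Anxa7 stood at 47.62 and 47.60 in UUO urine and cannot be placed in an order. With no replicate, which other neighbours in these orders differ could not be tested.

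**Figure D1:**
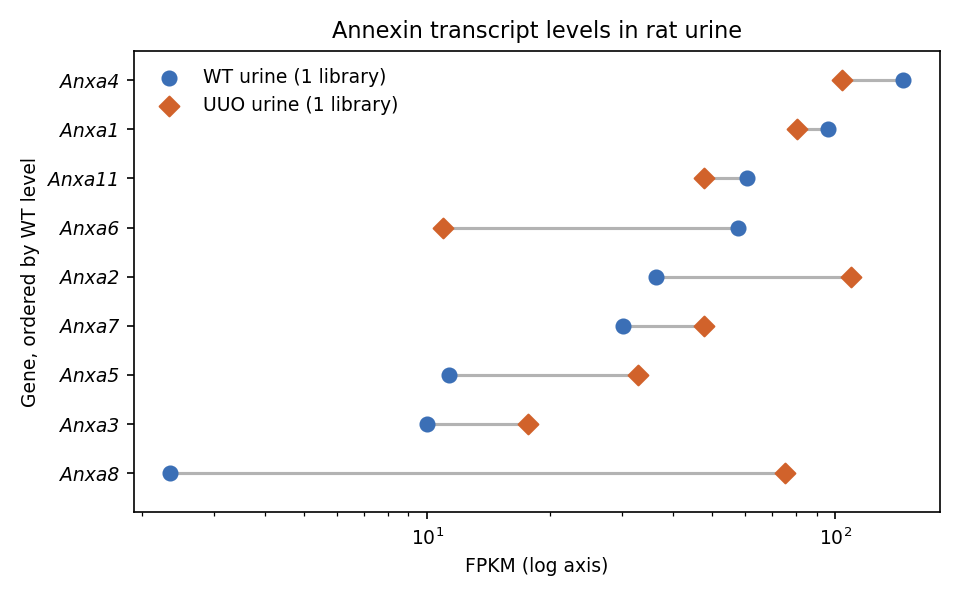
FPKM on a log axis for each annexin, with 1 circle for the WT library and 1 diamond for the UUO library, and genes ordered by WT level. Anxa8 spans the longest line, from 2.35 to 75.4, Anxa6 runs the other way from 57.6 to 10.9, and Anxa1, Anxa4 and Anxa11 are a little lower in UUO urine.

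Differences were expressed as log2(FPKM + 1), UUO minus WT, and counted when they were 1 or more in size (2-fold). Anxa2, Anxa5 and Anxa8 were higher in UUO urine by this limit, Anxa6 was lower, and the other 5 were within it. Over the 9853 number-only genes that reached 1 FPKM in a library, 25.7% were higher and 36.5% were lower by the same limit. That group includes genes listed at 0 in WT, which pass the limit as soon as UUO reaches an FPKM of 1. Over the 7218 genes with an FPKM of at least 1 in both libraries, as all 9 members had, 7.01% were higher and 42.8% were lower. The members' median difference was 0.64, against -0.51 over the first group and -0.81 over the second.

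**Figure D2:**
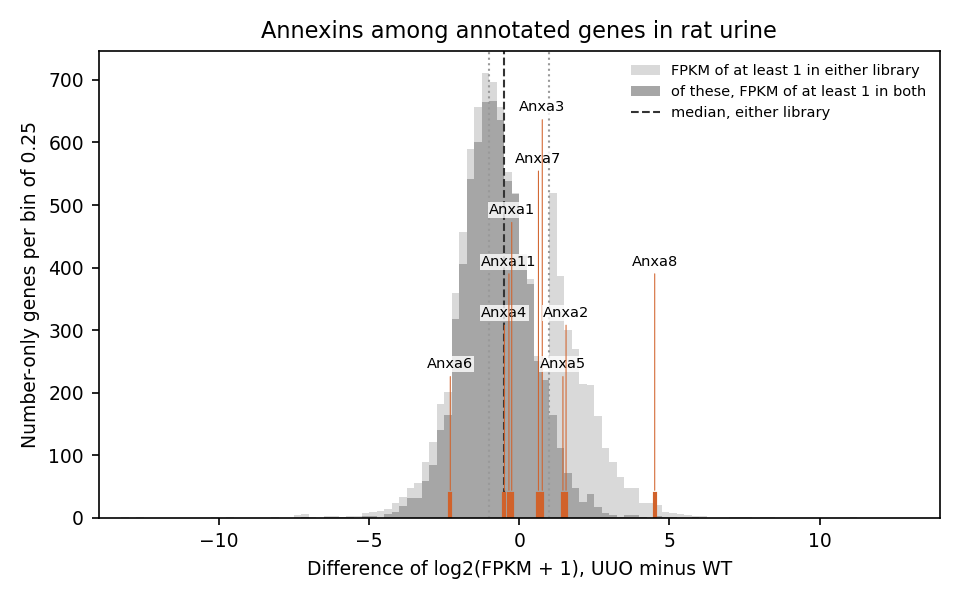
Number of number-only genes per bin of 0.25 in the difference of log2(FPKM + 1), UUO minus WT, for genes with an FPKM of at least 1 in either library (light) and in both (dark), with the annexins marked as ticks, the 2-fold limits dotted and the median of -0.51 dashed. Anxa6 lies on the left side of the bulk at -2.29, Anxa4, Anxa11 and Anxa1 lie just right of the median, and Anxa8 lies in the far right tail at 4.51.

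The promoters of the 3 members that were higher in UUO urine are shown, because these are the members past the limit in that direction. Each is the stretch of 250 bases before the annotated start in RefSeq's GRCr8 annotation, written 5′ to 3′ on the gene's strand. Capitals mark a TATA box (TATAAA) or an AP-1 site (TGACTCA, which reads TGAGTCA on the other strand).

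Anxa8, chr16:9403137-9403386, plus strand: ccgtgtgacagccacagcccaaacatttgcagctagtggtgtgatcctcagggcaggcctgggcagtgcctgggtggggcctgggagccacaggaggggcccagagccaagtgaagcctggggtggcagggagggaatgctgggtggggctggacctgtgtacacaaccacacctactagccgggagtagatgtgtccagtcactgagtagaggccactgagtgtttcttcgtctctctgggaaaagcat
Anxa2, chr8:78986002-78986251, plus strand: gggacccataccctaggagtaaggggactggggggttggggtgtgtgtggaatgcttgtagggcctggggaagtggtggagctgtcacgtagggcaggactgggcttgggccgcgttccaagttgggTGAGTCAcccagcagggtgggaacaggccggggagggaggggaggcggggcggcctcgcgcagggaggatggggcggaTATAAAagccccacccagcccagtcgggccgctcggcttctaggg
Anxa5, chr2:121272697-121272946, minus strand: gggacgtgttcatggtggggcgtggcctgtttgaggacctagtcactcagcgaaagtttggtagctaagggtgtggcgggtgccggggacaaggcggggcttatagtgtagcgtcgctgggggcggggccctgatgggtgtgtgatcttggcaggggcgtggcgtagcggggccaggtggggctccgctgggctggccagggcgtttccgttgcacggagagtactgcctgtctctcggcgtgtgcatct

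Only the Anxa2 window of these 3 held a searched motif, a TATA box that begins 45 bases and an AP-1 site that begins 123 bases before the start. A TATA box was also found in the Anxa1 window, and 12.9% of all 33469 promoter windows held one on either strand. An AP-1 site was present in 4.05% of all windows. The Smad motif CAGACA was found in the windows of Anxa11 and Anxa9, against 17.2% of all windows, and the longer Smad motif AGCCAGAC, which can overlap it, in 0 of the 9 members with a window, against 1.11%. An NF-kB consensus site (2 forms of 10 bases) was found in the Anxa4 window, against 0.164% of all windows. The 3 windows also differed in composition. That of Anxa5 held 18 CpG dinucleotides at 65.2% G and C and that of Anxa2 held 12 at 67.2%, while that of Anxa8 held 3 at 60.4%, against medians of 5 and 51.2% over all windows. These are matches of letters and not measured binding.

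Anxa2 and Anxa1 carry short tails that bind S100 proteins. Anxa2 (gene ID 56611, chromosome 8, 80014360 to 80050854, rn5, as are the positions of genes below), which pairs with S100a10 at the inner face of the plasma membrane, stood at 36.3 FPKM in the WT and at 109.03 FPKM in the UUO library. It was the fifth member in WT and the highest in UUO urine. The level was 3.001-fold higher, a log2 difference of 1.56, which lay above that of 97.01% of the genes detected in both libraries. In WT urine Anxa2 stood at about 76.9 fragments per 1000 bp and in UUO urine at about 266.1. Its locus holds 5 noncoding database entries besides the gene, and 1 of them, NONRATT053634, was listed at 0 in WT and 130.1 in UUO urine. The member held 45.4% of the locus sum in UUO against 98.6% in WT urine. Summed over the locus, with the LOWDATA entry included, the log2 difference was 2.67, in the same direction.

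Anxa1 (gene ID 25380, chromosome 1, 245192533 to 245208963), a glucocorticoid-induced protein that dampens leukocyte recruitment, stood at 96.1 FPKM in the WT and at 80.7 FPKM in the UUO library. It was the second member in WT and the third in UUO urine. The log2 difference was -0.25, and it became 0.06 when both libraries were scaled to the same sum over number-only genes, so no direction can be given. Anxa1 stood at 2.64 times the level of Anxa2 in WT and at 0.74 times in UUO urine, a ratio within a library that no scaling alters.

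Anxa8 (gene ID 306283, listed at chromosome 16, 8493023 to 10652313), an epithelial annexin known from squamous and secretory linings, had the greatest difference of the family. Its level was 2.35 FPKM in the WT and 75.4 FPKM in the UUO library, 32.1-fold apart, a log2 difference of 4.51. Of the genes detected in both libraries, 99.9% had a lower difference. It was the lowest member in WT and the fourth in UUO urine. The WT level rests on about 4.97 fragments per 1000 bp against about 184 in UUO urine, and the ratio is the less precise for its WT side. The listed locus is a merged region of 137 features with 17 other number-only genes, among them Glud1, Sncg and Fam25a, and the summed FPKM of that region was 1.66-fold higher in UUO urine, which says little of Anxa8 itself.

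Anxa5 (gene ID 25673, chromosome 2, 142777623 to 142810057), which binds exposed phosphatidylserine and is the reagent used to label dying cells, stood at 11.3 FPKM in the WT and at 32.9 FPKM in the UUO library. The level was 2.897-fold higher, a log2 difference of 1.46, above 96.5% of the genes detected in both libraries. It was the seventh member in both orders.

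Anxa3 (gene ID 25291, chromosome 14, 14313645 to 14368162), abundant in neutrophil granules and also made by epithelia, stood at 9.98 FPKM in the WT and at 17.7 FPKM in the UUO library, a log2 difference of 0.77. Anxa4 (gene ID 79124, chromosome 4, 183108898 to 183164906), a marker of secretory and tubular epithelium, stood at 146.5 FPKM in the WT and at 103.9 FPKM in the UUO library. It was the highest member in WT and the second in UUO urine. The log2 difference of -0.49 is about the median of the genes that reached 1 FPKM in a library (-0.51). It lay above that of 61.1% of the genes detected in both libraries, whose median was -0.81. After scaling by the median ratio of the genes the Anxa4 difference turned to 0.40.

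Anxa6 (gene ID 79125, chromosome 10, 40092826 to 40148308), whose protein holds a doubled annexin core and which acts at endosomes and the cell cortex, was the member that was lower by the limit. Its level was 57.6 FPKM in the WT and 10.9 FPKM in the UUO library, 5.26-fold lower, a log2 difference of -2.29. Only 7.25% of the genes detected in both libraries had a lower difference. It was the fourth member in WT and the lowest in UUO urine. These levels stand for about 121.9 and 26.7 fragments per 1000 bp of effective transcript length. Its locus held 5 other entries, the highest at 1.04 FPKM, and the member kept 91.3% or more of the locus sum in both libraries.

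Anxa7 and Anxa11 have long tails rich in glycine and proline and bind the calcium sensor Pdcd6. Anxa7 (gene ID 155423, chromosome 15, 8355751 to 8382624), also called synexin, stood at 30.2 FPKM in the WT and at 47.6 FPKM in the UUO library, a log2 difference of 0.64. Anxa11 (gene ID 290527, listed at chromosome 16, 3260476 to 4228653), which tethers RNA granules to lysosomes, stood at 60.6 FPKM in the WT and at 47.6 FPKM in the UUO library, a log2 difference of -0.34. Anxa7 was thus at 0.498 times the level of Anxa11 in WT and level with it in UUO urine. The Anxa11 locus is shared with 3 other number-only genes, of which Tmem254 stood at 49.7 FPKM in the WT and at 53.4 FPKM in the UUO library.

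The summed FPKM of the 9 annexins was 451.04 in WT and 525.8 in UUO urine, 1.17-fold apart. Without Anxa8 the sums were 448.7 and 450.4. As a share of the summed FPKM of all number-only genes the family held 0.134% in WT and 0.194% in UUO urine. The size of the difference depends on the scaling, since the log2 ratio of the sums was 0.22 as deposited and 1.18 after scaling to the same 75th percentile. The make-up of the sum does not depend on it. Anxa4 held 32.5% of the annexin FPKM in WT and 19.8% in UUO urine, and Anxa6 12.8% and 2.08%. Anxa2 held 8.06% in WT and 20.7% in UUO urine, and Anxa8 0.521% and 14.3%. Anxa1 went from 21.3% to 15.4% and Anxa5 from 2.51% to 6.25%. The 4 highest members together held 80.0% in WT and 70.2% in UUO urine. The ratio of Anxa6 to Anxa8 was 24.5 in WT and 0.145 in UUO urine.

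**Figure D3:**
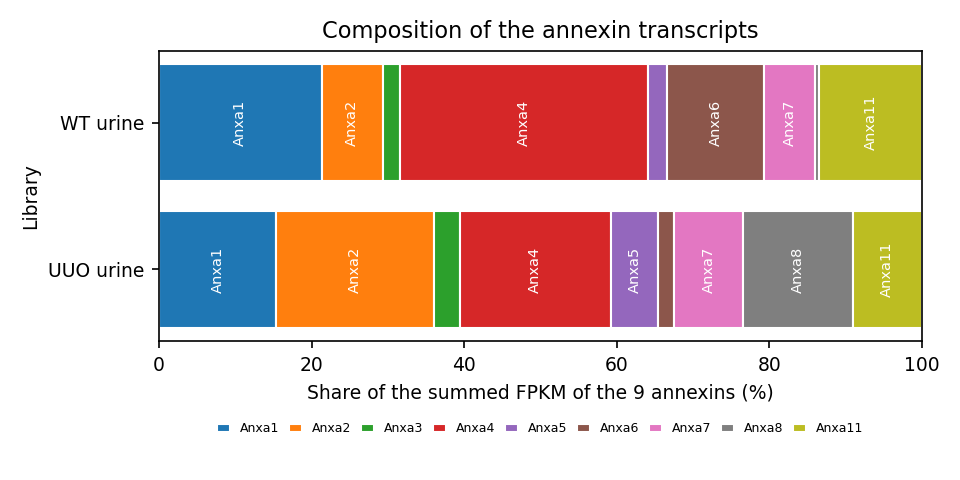
Share of each annexin in the summed FPKM of the 9 members, in percent, as 1 stacked bar per library. The bands of Anxa2 (8.06% to 20.7%) and Anxa8 (0.521% to 14.3%) are wider in UUO urine, and those of Anxa4 (32.5% to 19.8%) and Anxa6 (12.8% to 2.08%) are narrower.

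The directions of the smaller differences did depend on the scaling. Scaling UUO values up to equal sums over all features, to equal sums over number-only genes, by the median ratio or to the same 75th percentile adds between 0.32 and 0.96 to the log2 FPKM of every gene, and the median difference of the genes that reached 1 FPKM in a library then lay between -0.23 and 0.35. By the 75th percentile 36.6% of these genes were higher and 15.7% lower, against 25.7% and 36.5% as deposited. Anxa2, Anxa5 and Anxa8 stayed higher by 2-fold or more under all 4, at least at 1.87, 1.76 and 4.82, and Anxa6 stayed lower by 2-fold or more, at -1.39 at the nearest. Anxa3 and Anxa7 passed the limit upward under 4 and 3 of them. Anxa1 was above 0 under all 4 and Anxa4 and Anxa11 under 3. Relative to the median of the 9853 genes, 8 of the 9 members were above it and Anxa6 lay at -1.79.

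**Figure D4:**
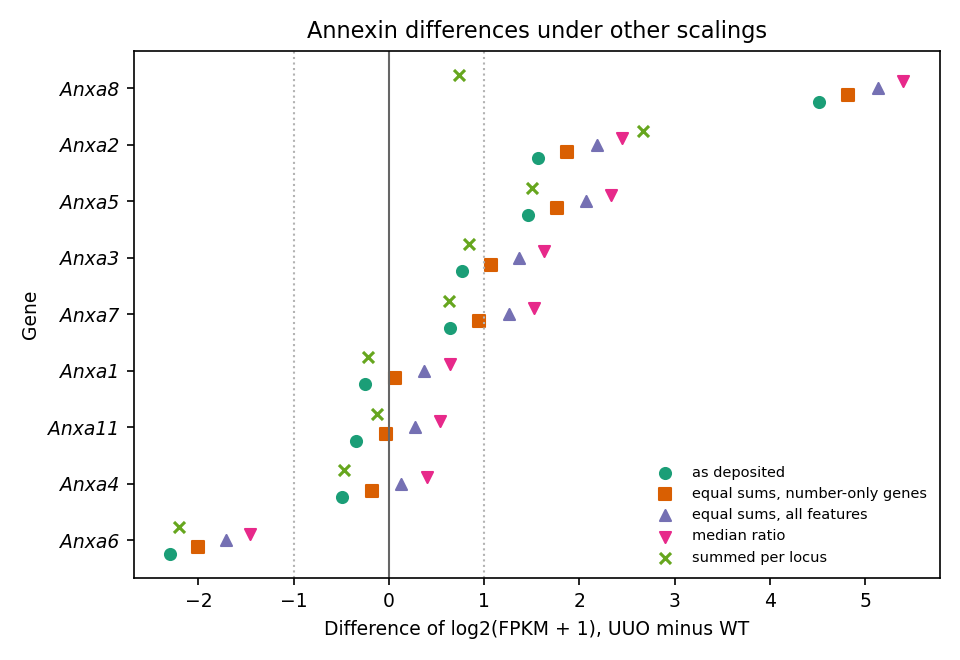
Difference of log2(FPKM + 1), UUO minus WT, for each annexin as deposited, under 3 of the scalings and with FPKM summed over all entries of the listed locus (crosses), with the 2-fold limits dotted. Anxa6 stays left of -1 and Anxa2 and Anxa5 right of 1 at every point shown, Anxa1, Anxa4 and Anxa11 straddle 0, and the locus sum moves Anxa8 to 0.73.

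Genes that act with the annexins were taken from lists chosen with earlier results of these data known. Their counts stand beside the 25.7% higher and 36.5% lower of all genes that reached 1 FPKM in a library, and a gene listed at 0 in WT enters only through UUO urine and can only count as higher. Over genes at 1 FPKM or more in both libraries the shares were 7.01% and 42.8%. Of 10 partner proteins, 9 reached 1 FPKM in a library, and 4 of these were higher and 0 lower by 2-fold, with a median difference of 0.98. Cav1 and Plgrkt, 2 of the 4, were listed at 0 in WT, and over the 7 partners in both libraries 2 were higher, 0 were lower and the median was 0.11. S100a10, the partner of Anxa2, stood at 73.7 FPKM in the WT and at 68.7 FPKM in the UUO library. Its level was 2.03 times that of Anxa2 in WT and 0.630 times in UUO urine, and the pair thus stood in opposite order. S100a11, the partner of Anxa1, was at 62.8 in WT and 158.6 in UUO urine, a log2 difference of 1.32, and passed Anxa1 there. S100a6, a partner of Anxa11, was far above every annexin at 3753 and 2877. S100a4, another S100 protein that binds Anxa2, was at 25.09 and 170, a log2 difference of 2.71.

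Ahnak, a giant scaffold held at the membrane by Anxa2 and S100a10, was at 51.7 in WT and 103.3 in UUO urine, a log2 difference of 0.98. Pdcd6 was at 33.4 and 33.5, and Sri (sorcin, a partner of Anxa7) at 66.6 and 71.9, so these partners of the long-tailed annexins were nearly level. Cav1, Plgrkt and Dysf were listed at 0 in WT and at 2.36, 1.90 and 0.288 in UUO urine. Over the list of 16 S100 symbols, of which S100pbp is only a binding protein, 8 of the 11 that reached 1 FPKM in a library were higher and 0 were lower, with a median of 1.97, but 6 of the 8 were listed at 0 in WT. Over the 5 S100 genes in both libraries 2 were higher and the median was 0.011. The lists overlap, since S100a4, S100a6, S100a10 and S100a11 are also among the partners. S100a4 and S100a11 are the 2 higher genes in both libraries on each list. The 2 with the greatest difference were S100a9 (71.7) and S100a8 (26.96), both listed at 0 in WT.

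**Figure D5:**
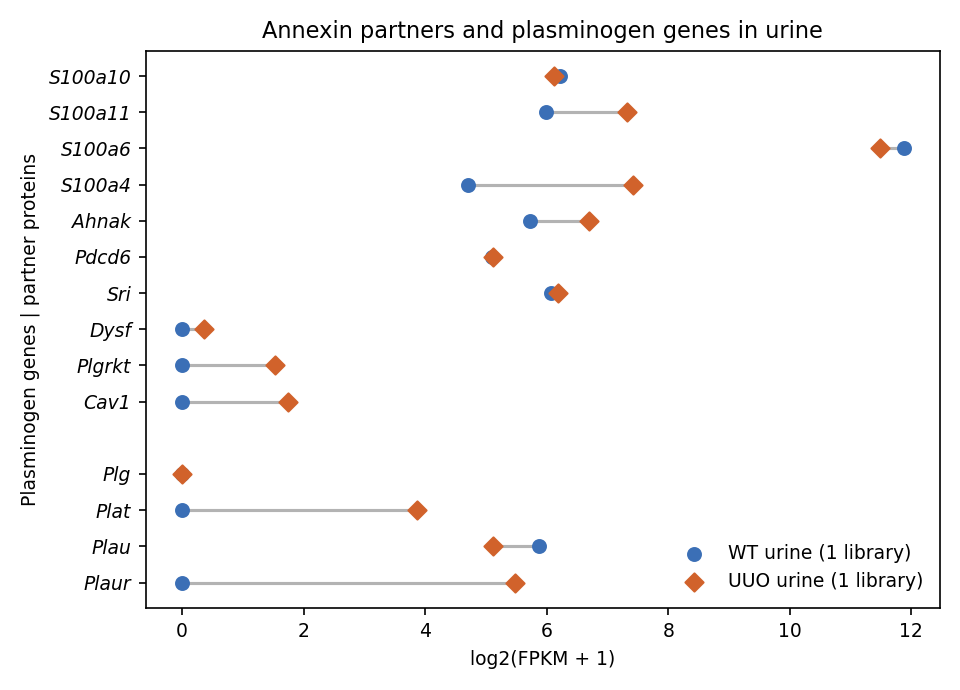
Level as log2(FPKM + 1) of the annexin partner proteins (upper block) and genes of the plasminogen system (lower block), with circles for the WT and diamonds for the UUO library. S100a4 and S100a11 are higher in UUO urine, S100a10, Pdcd6 and Sri nearly coincide, and Plaur and Plat are at 0 in WT only.

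At cell surfaces Anxa2 with S100a10 acts as a docking site for plasminogen and its activator. Of 6 genes listed for this system, 4 reached 1 FPKM in a library, with 3 higher and 0 lower. The shares over all genes were 25.7% and 36.5%. All 3 higher genes were listed at 0 in WT and could only count as higher. Plaur, the urokinase receptor, was listed at 0 in WT and stood at 43.6 in UUO urine. Plat, tissue plasminogen activator, was likewise listed at 0 in WT and stood at 13.6 in UUO urine. Plau, urokinase, the only listed gene with an FPKM of at least 1 in both libraries, was at 57.8 in WT and 33.7 in UUO urine. Its log2 difference of -0.76 is about the median of all genes in both libraries (-0.81). Plg itself was listed at 0 in both.

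Of the 9 symbols of Anxa1 receptors, proteases and related genes, 6 had a row and 3 reached 1 FPKM in a library, with 1 higher (listed at 0 in WT), 1 lower and a median of -0.27. The receptor Fpr1 and the neutrophil proteases Prtn3 and Elane were listed at 0 in both libraries. Tsc22d3, like Anxa1 a glucocorticoid target, was at 49.4 in WT and 13.2 in UUO urine, a log2 difference of -1.83. Nr3c1, the glucocorticoid receptor, was at 11.4 and 9.27, and the phospholipase Pla2g4a was listed at 0 in WT and at 1.91 in UUO urine.

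Of the 11 genes with a row for exposing or recognising phosphatidylserine, the lipid that Anxa5 binds, 9 reached 1 FPKM in a library, 3 were higher and 2 lower, with a median of 0.51, and of the 6 in both libraries 0 were higher and 2 lower. These counts are near the shares of all genes. Ano6, the calcium-driven scramblase that exposes it, was at 14.8 in WT and 4.87 in UUO urine, and Tmem30a, the subunit of the flippases that hide it, at 31.8 and 13.1, log2 differences of -1.43 and -1.22. These were the 2 lower genes. The 4 within the limit were Atp11a (22.3 in WT, 32.1 in UUO urine), Axl (3.34 and 6.94), Gas6 (7.64 and 9.78) and Mfge8 (10.6 and 10.4). The median difference of the 6 genes in both libraries was 0.147. The 3 higher genes, Mertk, Havcr1 and Xkr8, were listed at 0 in WT and reached 2.07 or less in UUO urine.

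Of 13 genes that link membranes to actin and reached 1 FPKM in a library, 1 was higher and 8 were lower, with a median of -1.07. All 13 were in both libraries, where 42.8% of genes were lower and the median was -0.81. The extremes were Nherf1 (1235 in WT, 203.9 in UUO urine) and Ezr (726 and 165) on the lower side and Flna (2.09 and 14.3) on the higher. Vcl followed Flna at 10.8 and 21.4, short of the limit. Of 16 vesicle genes, 3 were higher and 5 lower, with a median of -0.38, near the shares and the median of all genes, and 2 of the 3 higher were listed at 0 in WT. The extremes were Cd9 (0 and 17.1) and Tspan1 (0 and 1.69) against Hgs (116.9 and 22.04) and Pdcd6ip (146.7 and 32.5). No test of a difference from the annexins was possible with these libraries.

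Markers of cell types that urine can carry RNA from also differed between the libraries. Their counts stand beside the 25.7% higher and 36.5% lower of all genes that reached 1 FPKM in a library. Over genes in both libraries the shares were 7.01% and 42.8%. The summed FPKM of 7 urothelial markers was 1174 in WT and 1691 in UUO urine, with 2 higher and 1 lower. The higher ones were Upk2 (82.4 and 168.6) and Krt5, a basal cell keratin listed at 0 in WT and at 51.8 in UUO urine. Krt5 could only count as higher, and its listed locus holds 25 features. The lower one was Krt20 (26.4 and 12.5). Of the 6 urothelial markers in both libraries 1 was higher and 1 lower. Of 11 leukocyte markers 8 reached 1 FPKM in a library and all 8 were higher, with sums of 7.55 and 143.8, but 7 of these were listed at 0 in WT and could only count as higher. Among these 7 are S100a9 (71.7) and S100a8 (26.96), named above with the S100 list, and they made up most of the sum of 143.8. The marker not at 0 in WT, Lyz2, stood at 7.55 and 26.5. The T cell marker Cd3e was listed at 0 in both. The 5 red-cell markers summed to 3074 and 86827, all higher. The 8 proximal tubule markers summed to 160.6 and 41.2, with 7 lower, while the 9 of the loop, distal tubule and collecting duct summed to 297.2 and 282.3, with 3 higher and 1 lower. Of the 5 proximal markers in both libraries 4 were lower. Of the 8 markers of the later segments in both libraries 2 were higher and 1 lower. The 5 squamous markers with a row summed to 304.1 and 94.1, of which Sprr1a alone gave 291.4 and 88.9. Only 2 of these 5 reached 1 FPKM in a library, and both were lower. The 5 podocyte markers summed to 19.1 and 49.2, of which Synpo gave 13.2 and 39.0. Of the 4 that reached 1 FPKM in a library, 3 were higher and 1, Wt1 (3.96 and 1.39), was lower. The part of these cells in the annexin differences was not tested.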

How the data were processed

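RNA of rat urine was measured in 1 WT and 1 UUO library. Per the study's methods the authors cleaned the read pairs, mapped them by TopHat and built transcript models by Scripture and by Cufflinks. The submitters' processing notes name rn5, Bowtie2 2.0.6, TopHat2 2.0.9 and Cufflinks and Cuffdiff 2.1.1. The authors deposited 1 FPKM value per feature and library, and the total used for scaling is not given in the sources used here. Their columns of fold changes, test statistics and p-values were not used. Positions are as listed.

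Symbols came from RefSeq (GRCr8), which matched 16329 of 16484 number-only IDs. Differences of log2(FPKM + 1), a scale that understates the change of low genes, were counted at 2-fold among genes with an FPKM of at least 1 in either library. Fragment totals were fitted to assembled features alone at their locus, 400 to 1200 bp long, of which 93.5% of 186 values in WT and 99.5% of 3530 in UUO urine came within 0.1 of a whole number. The calculation was tested on simulated data (Python 3.11.15, pandas 2.3.3, numpy 2.4.6). An FPKM is uncertain where entries overlap. The members, lists and settings were chosen with earlier results of these data known. All members were named, all genes of the 4 lists of functions tied to annexins could be named, and of the S100, membrane-actin and vesicle lists the extremes. Single genes of the plasminogen and leukocyte lists are not reported here. Protein features were not analysed here. Promoter windows matched 9 of the 10 members, not Anxa6.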

Additional observations from a re-analysis of the deposited data

Results flagged for a closer look

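Among entries that are no member, NONRATT053634, a noncoding database entry within the listed Anxa2 locus, was listed at 0 in WT urine and had an FPKM of 130.1 in UUO urine, above the 109.03 of Anxa2 itself. The authors' output gives this entry the status LOWDATA and Anxa2 the status OK, so its level is the less certain of the 2. Its own start, end and strand are not listed, and how reads were divided between the entries was not tested. Anxa13, an annexin of gut and kidney epithelium outside the members, was listed at 0 in WT and had an FPKM of 1.60 in UUO urine, about 3.92 fragments per 1000 bp. Both were looked at because a signal stood above the control library in entries the comparisons do not use. Of the 2534 number-only genes that were higher by 2-fold, only 506 had an FPKM of at least 1 in both libraries. Most were thus below 1 FPKM in WT, as Anxa13 was.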

How the results depend on the processing

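No paired analysis was possible because WT and UUO have 1 library apiece. Counts within 1.5 times of the value given, and log2 differences whose sign and side of 1 stayed as they were, were taken as unchanged. The number of members higher in UUO urine was 3 as deposited, 1 at a 4-fold limit and 5 after scaling to equal sums over all features, by the median ratio, to the same 75th percentile, or to equal sums over number-only genes without the red-cell list, the last chosen after seeing the data. Over all genes the share higher moved too, from 25.7% as deposited to 10.7% at the 4-fold limit. It was 31.8%, 35.5%, 36.6% and 35% under these 4 scalings in turn. Under these 4 scalings in turn the annexin median was 1.26, 1.52, 1.59 and 1.48, and the median of the partners 1.60, 1.87, 1.94 and 1.84. With equal sums over number-only genes the partner median was 1.296, and it was lower than the 0.98 as deposited at an FPKM of at least 5 (0.11), with a pseudocount of 10 (0.25) and with no filter (0.67). The log2 ratio of the summed annexin FPKM was 1.12 by the median ratio, 1.18 by the 75th percentile and 1.08 without the red-cell list. The S100 median was 0.44 with a pseudocount of 10, which shrinks low genes. Each scaling raises all UUO values by 1 factor, and which is right was not tested. The same scalings reversed Anxa1 (0.37, 0.64, 0.70, 0.60, and 0.063 with equal sums over number-only genes), Anxa4 (0.13, 0.40, 0.46, 0.36) and Anxa11 (0.27, 0.54, 0.61, 0.50). Of 72 recomputed member values 49 were unchanged, 10 changed their side of 1 and 13 changed sign. Anxa2, Anxa5 and Anxa6 were unchanged under all 8 settings tried for single members, and Anxa8 under all but the locus sum, at 0.73. The count of 1 lower member did not move. Anxa8 in WT rests on few fragments per 1000 bp.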
